A study of Rattus norvegicus with 10 samples.

Results

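The cell cycle genes measured here are the cyclins, the cyclin-dependent kinases (CDKs) with their inhibitors and partners, and the genes of DNA replication. A gene was a member when its only symbol in the platform's probe annotation began with Ccna, Ccnb, Ccnd, Ccne, Ccng, Ccnh, Cdk, Cdc2, Mcm followed by a digit, Pola, Pold, Pole, Prim, Rfc or Rrm, or was Pcna, Top2a, Mki67, Tyms, Tk1, Plk1, Fen1 or Lig1. This took 44 of the 4736 genes measured, with 76 of the 8740 probe sets tested. A probe set is the group of short array probes that reads 1 transcript. By role, 29 of the 44 genes were proliferation genes, 4 were CDK inhibitors (Cdkn1a, Cdkn1b, Cdkn1c and Cdkn2b), and 11 were other members, such as Ccng1, Cdk5 and Cdk7. The 29 include Ccndbp1 and Mcm3ap, which met the rule by their prefix and encode binding partners of D cyclins and of Mcm3. Mki67, Tk1, Lig1 and any gene of the prefixes Ccna, Ccnh, Pole and Rrm were not analysed here.

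The series measured RNA of microglia, the resident macrophages of the brain, on 10 Affymetrix rat expression arrays. The microglia came from neonatal rat brain, with 1 brain for each flask, and grew in 15% fetal calf serum with medium changes on days 7 and 11 before plating on day 15 at 100000 cells per dish. The 5 control cultures (numbered 1, 2, 3, 5 and 6) received fresh medium alone, and the 3 IFN-gamma cultures (1, 2 and 3) received 100 U/ml interferon gamma for 16 hours. IFN-gamma culture 1 was hybridised on 3 technical arrays, whose mean was used as 1 value. The labels separate the groups by IFN-gamma alone, and serum was present in both.

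A cell enters division when D cyclins with Cdk4 and cyclin E with Cdk2 phosphorylate the retinoblastoma protein, which frees E2F factors to switch on replication genes. The Mcm helicase then opens the DNA, primase and DNA polymerase alpha start each new strand, and the clamp Pcna with its loader Rfc holds the elongating polymerase. Cyclin B with Cdk1 drives mitosis, and inhibitors such as p21 (Cdkn1a) and p27 (Cdkn1b) bind and block cyclin-CDK complexes. Cultured neonatal microglia can divide in serum and in response to colony-stimulating factors, and interferon gamma is known as a cytokine that can slow the division of macrophages.

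E2F sites near the start of replication genes are a classic feature of this module, so the promoters of the 3 Mcm genes measured and of Cdkn1a, the inhibitor with the largest single difference, are shown. Each is the RefSeq window from 250 bases before to 50 bases after the gene's start in the rat build GRCr8, 5′ to 3′ on the gene's strand. Capitals mark the letters TTTCCCGC, TTTCGCGC, TTTGCCGC or TTTGGCGC on either strand, and a longer run of capitals is an overlapping pair. The windows are chr19:13488563-13488862 (plus strand) for Mcm5, chr13:42404303-42404602 (minus strand) for Mcm6, chr12:22163129-22163428 (minus strand) for Mcm7 and chr20:7150682-7150981 (plus strand) for Cdkn1a.
Mcm5: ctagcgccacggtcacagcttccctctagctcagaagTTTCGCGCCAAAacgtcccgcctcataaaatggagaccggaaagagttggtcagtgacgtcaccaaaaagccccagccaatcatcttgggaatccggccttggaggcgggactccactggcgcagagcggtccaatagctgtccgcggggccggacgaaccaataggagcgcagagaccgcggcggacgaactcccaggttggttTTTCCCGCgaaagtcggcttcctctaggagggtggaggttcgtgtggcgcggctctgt
Mcm6: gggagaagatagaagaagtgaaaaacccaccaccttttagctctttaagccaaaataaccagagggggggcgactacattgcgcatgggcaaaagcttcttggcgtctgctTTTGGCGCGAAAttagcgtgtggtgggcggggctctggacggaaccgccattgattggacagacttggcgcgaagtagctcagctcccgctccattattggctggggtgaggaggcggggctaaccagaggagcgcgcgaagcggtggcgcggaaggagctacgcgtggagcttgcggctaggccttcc
Mcm7: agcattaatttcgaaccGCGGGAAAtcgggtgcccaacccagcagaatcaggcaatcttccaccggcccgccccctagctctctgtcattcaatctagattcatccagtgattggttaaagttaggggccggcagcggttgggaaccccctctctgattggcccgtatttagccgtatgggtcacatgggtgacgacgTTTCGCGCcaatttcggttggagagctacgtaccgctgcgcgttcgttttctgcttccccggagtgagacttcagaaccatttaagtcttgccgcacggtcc
Cdkn1a: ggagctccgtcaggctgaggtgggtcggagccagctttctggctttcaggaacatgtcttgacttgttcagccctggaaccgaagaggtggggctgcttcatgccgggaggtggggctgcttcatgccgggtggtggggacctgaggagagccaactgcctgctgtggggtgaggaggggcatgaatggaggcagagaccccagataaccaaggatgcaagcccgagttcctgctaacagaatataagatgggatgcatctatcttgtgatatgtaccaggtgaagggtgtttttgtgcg
The Mcm5 window held 3 matches, and those of Mcm6 and Mcm7 held 2 each. The Cdkn1a window held 0. Bases outside these windows, including those at any other start of Cdkn1a, were not searched.

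RefSeq windows were matched for 38 of the 44 genes. The E2F letters stood in 8 of 26 windows of proliferation genes (30.8%), which were those of Cdc25a, Cdk1, Mcm5, Mcm6, Mcm7, Pola1, Pold3 and Tyms. They stood in 0 of 3 windows of CDK inhibitors and 0 of 9 of the other members, against 716 of 33469 promoters of that length in the table (2.14%). The letters CCAAT, searched on both strands, stood in 18 of the 26 proliferation windows (69.2%) and in 37.5% of all promoters. The letters TTTGAA, an element of many genes expressed in G2 phase and mitosis, stood in 4 of the 26 proliferation windows (15.4%). Of all promoters 18.3% held TTTGAA. Over all 38 matched genes CCAAT stood in 21 (55.3%) and TTTGAA in 6 (15.8%). A match is a description of the letters, and binding was not measured.

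Levels are given as the normalised log2 of the deposited signal plus 16, called log2 units below, on which a signal of 0 sits at about 4. A difference is IFN-gamma minus control in the same units, and it understates the change of dim probe sets. Values for a probe set are listed in the order control 1, 2, 3, 5 and 6, then IFN-gamma 1, 2 and 3. Adjusted p-values are from limma, two-sided, with Benjamini-Hochberg adjustment over all 8740 probe sets, and a call is an adjusted p under 0.05. Where a gene has several probe sets, the gene's value is that of its brightest probe set, the one with the highest mean over all 8 cultures.

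Array signals differed in scale before normalisation: the median deposited signal ran from 7.4 (control 3) to 23.7 (IFN-gamma array 1b), and the number of member probe sets above a signal of 16 ran from 23 of 76 in control 3 to 50 of 76 in control 1. After normalisation 35 of the 76 member probe sets (46.1%) had a mean above 5 log2 units, a signal of 16 above the added 16, against 47.8% of all probe sets. Among the microglial markers, the summed level of 11 measured genes was 74.1 to 77.9 in controls and 79.5 to 82.1 in IFN-gamma cultures. Of the 11, 10 had a mean above 5 and Csf1r lay below it. The complement genes C1qb and C1qc were called higher, by 1.14 and 1.31. Against these, 3 of the 11 had a difference below 0: Cd14 (-0.34), Cx3cr1 (-0.285) and Fcgr2b (-0.28). The summed level of 8 astrocyte markers was 42.5 to 45.6 in controls and 41.1 to 42.4 in IFN-gamma cultures; without Glul, the glutamine synthetase gene, which fell by 1.66 (adjusted p = 0.00301), the ranges were 33.4 to 36.0 and 33.8 to 34.8. In controls 4 of the 8 astrocyte markers had a mean below 5, the lowest being Gja1 (4.11) and Ndrg2 (4.32), and the others were Glul (9.07), Slc1a3 (6.17), Slc1a2 (5.39) and Aldoc (5.10). The summed level of 9 fibroblast and mesenchyme markers was 46.6 to 48.7 in controls and 44.6 to 46.7 in IFN-gamma cultures; a Col1a1 probe set fell by 1.201 (adjusted p = 0.0239), and the brightest Col1a1 probe set differed by 0.00. Neuronal (7 genes), oligodendrocyte (6) and endothelial (4) markers had overlapping ranges of summed level.

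The cell cycle genes as a group showed few differences beyond the spread between cultures. Of the 76 member probe sets 1 was lower with IFN-gamma at the call threshold, a probe set of the helicase subunit Mcm6, and 0 were higher. Among all 8740 probe sets tested, 0.606% were called lower and 0.927% higher, so the member count is near the background. The same held without the multiple-test adjustment: 7 of 76 member probe sets (9.21%) had an unadjusted limma p under 0.05 and 10.5% of all probe sets did. Of those 7, 6 were lower with IFN-gamma and 1 was higher, and of the 918 among all probe sets 416 were lower and 502 higher.

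Counted by overlap, 3 of 76 member probe sets had all IFN-gamma cultures below all controls (3.95%; 3.4% of all probe sets), and these read Ccne1, Mcm6 and Top2a. In 1 of 76, a probe set of Cdkn1a, all IFN-gamma cultures lay above all controls (1.32%; 4.28% of all probe sets). The first share is near its background. The second rests on 1 probe set, too few to tell it from its background. In a bulk culture, fewer dividing cells and less RNA per cell cannot be told apart. The microglial marker sum was higher in every IFN-gamma culture (79.5 to 82.1) than in every control (74.1 to 77.9). That sum includes C1qb and C1qc, which were called higher, by 1.14 and 1.31. A sum without them was not made, so the separation cannot be read as a difference in cell content. The mesenchymal sums overlapped narrowly (44.6 to 46.7 against 46.6 to 48.7 in controls). By the brightest probe set, 8 of the 9 mesenchymal genes had a difference below 0, against 52.9% of all genes. Their median was -0.23, and 3 had an unadjusted limma p under 0.05, with 0 called. Without Glul the astrocyte sums of IFN-gamma cultures (33.8 to 34.8) lay within the control range (33.4 to 36.0). The part of cell content in the cell cycle values was not tested.

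**Figure D1:**
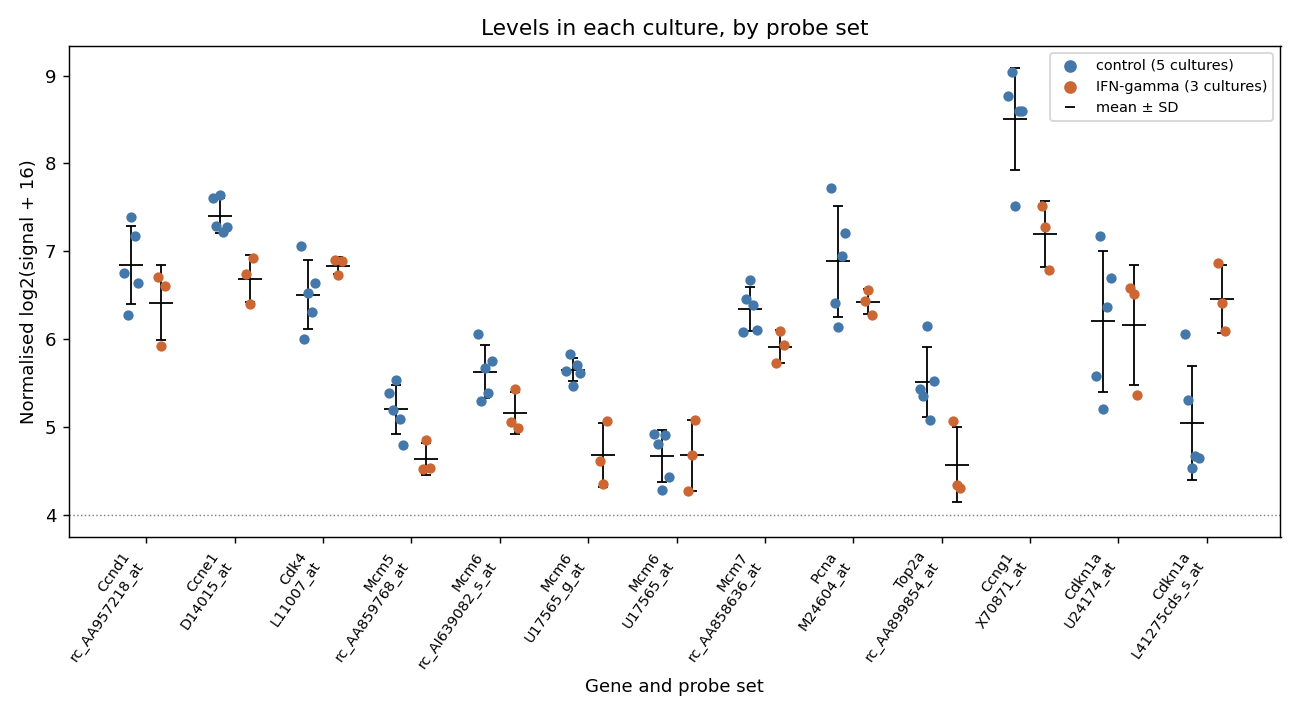
Normalised log2(signal + 16) of 13 member probe sets (x axis) in each of 5 control cultures (blue) and 3 IFN-gamma cultures (orange), with the mean ± SD of each group. For Ccne1, Mcm6 U17565_g_at and Top2a every orange point lies below every blue point; for Cdkn1a L41275cds_s_at every orange point lies above; the dotted line at 4 is a signal of 0.

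Among the proliferation genes, differences below 0 were the more frequent. By its brightest probe set, 21 of the 29 proliferation genes (72.4%) had a difference below 0, with a median of -0.16 and a range from -0.94 (Top2a) to 0.33 (Cdk4). Over all 4736 genes 52.9% were below 0 and the median was -0.02. The 4 CDK inhibitors had 2 genes below 0, a median of 0.02 and a range from -0.30 (Cdkn2b) to 0.14 (Cdkn1c). The 11 other members had 6 below 0 and a median of -0.003, in a range from -1.31 (Ccng1) to 0.37 (Cdk11b). With the brightest probe set of each gene, limma called 0 of the 44 genes in either direction, and 4 had an unadjusted p under 0.05 (9.09%; Ccng1, Ccne1, Top2a and Mcm5, all lower). Over all 4736 genes 33 were called lower and 42 higher, and 526 (11.1%) had an unadjusted p under 0.05, of which 249 were lower and 277 higher.

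The median level over the 29 proliferation genes was 5.43, 5.35, 5.45, 5.16 and 5.53 in controls 1, 2, 3, 5 and 6, and 5.09, 4.94 and 5.20 in IFN-gamma cultures 1, 2 and 3. Control 5 lay below IFN-gamma culture 3, so the groups overlapped, and the other 4 controls lay above all IFN-gamma cultures. The means of these medians were 5.38 ± 0.140 (SD, n = 5) and 5.08 ± 0.132 (SD, n = 3). The median over the 4 inhibitors was 5.32, 4.90, 4.81, 5.05 and 4.78 in controls and 5.01, 4.41 and 5.31 in IFN-gamma cultures, so both the lowest and the nearly highest culture were treated ones. Leaving out control 3 turned the inhibitors' median difference to -0.15, and leaving out IFN-gamma culture 3 turned it to -0.22. The median over all genes stayed between 5.08 and 5.16 in every culture. The members were chosen as a list, so no test was made on these medians.

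**Figure D2:**
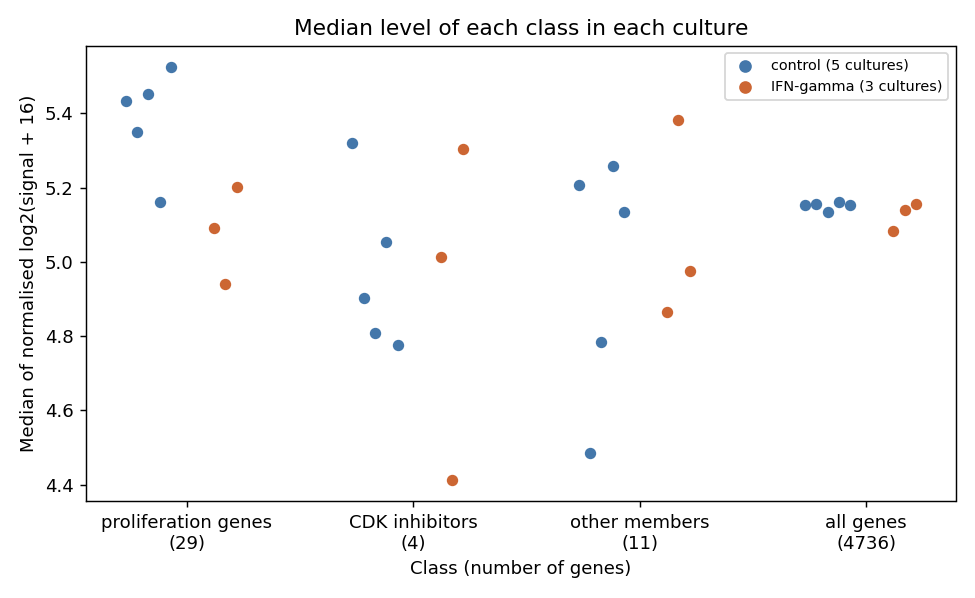
Median normalised log2(signal + 16) over the genes of each class (x axis, number of genes in brackets) in each control (blue) and IFN-gamma (orange) culture. For the proliferation genes 4 of 5 controls lie above all IFN-gamma cultures; for the inhibitors and the other members the groups mix, and for all genes the cultures differ little.

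**Figure D3:**
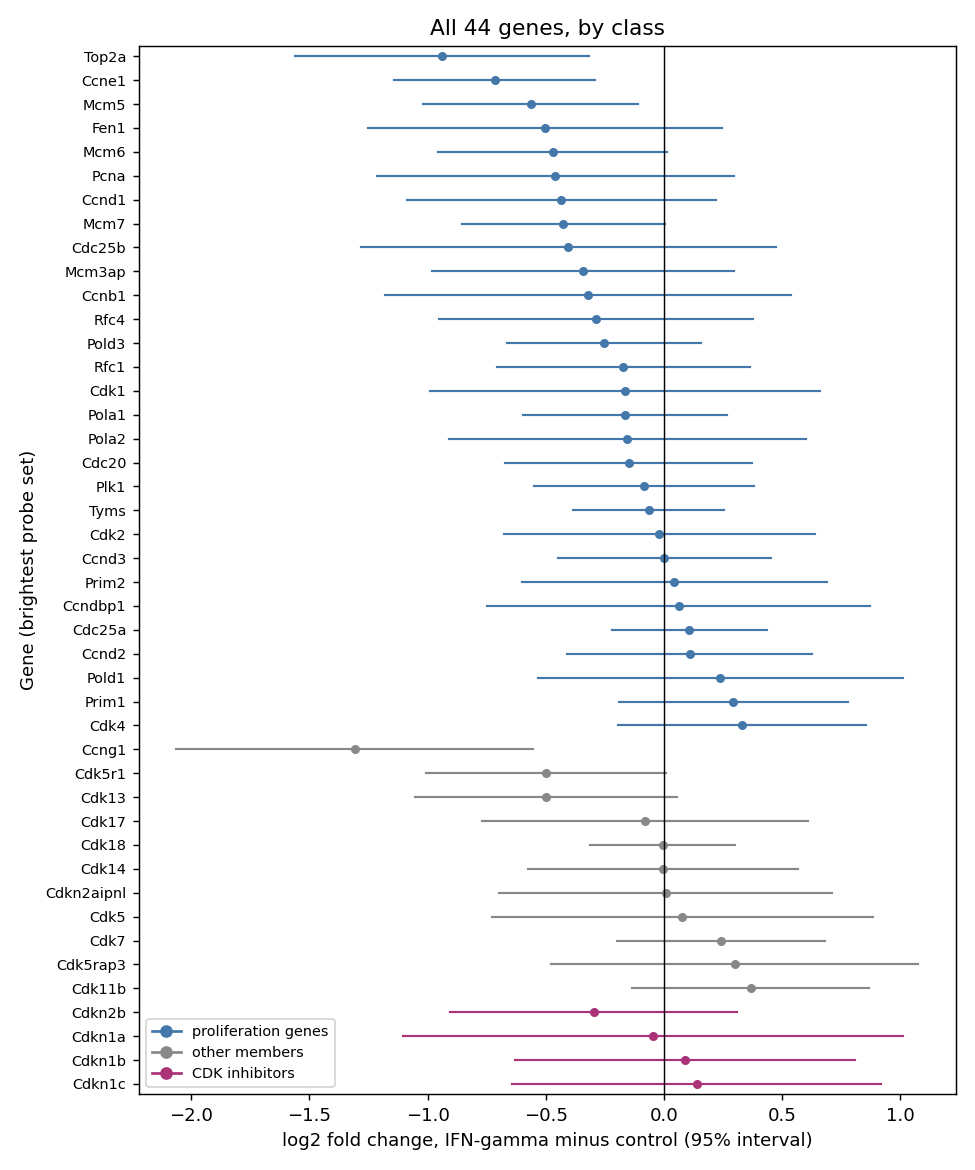
Difference IFN-gamma minus control in log2 units (x axis) for the brightest probe set of each of the 44 genes, with limma's 95% interval, grouped as proliferation genes (blue), other members (grey) and CDK inhibitors (purple). The intervals of Top2a, Ccne1, Mcm5 and Ccng1 lie wholly below 0, none lies wholly above 0, and most span 0.

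The cyclins and kinases of G1 phase showed no call. Cyclin E1 (Ccne1), the partner of Cdk2 at the entry to S phase, read 7.60, 7.29, 7.64, 7.22 and 7.27 in controls and 6.74, 6.40 and 6.92 in IFN-gamma cultures. All treated cultures lay below all controls, by -0.72 (95% interval -1.14 to -0.29; adjusted p = 0.141). The 3 technical arrays behind IFN-gamma culture 1 read 6.01, 6.78 and 7.44, so 1 of them lay within the control range. The second Ccne1 probe set differed by -0.17 (adjusted p = 0.916). Ccnd1, the cyclin most tied to mitogens, read 6.75, 6.27, 7.39, 7.18 and 6.63 against 6.71, 5.92 and 6.60 on its brightest probe set, with a difference of -0.43 (adjusted p = 0.723). Its groups overlapped widely, and its 5 probe sets gave differences from -0.45 to 0.12.

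The other D cyclins showed no call. Ccnd2 read 6.51, 6.57, 6.09, 5.92 and 6.73 in controls and 6.21, 6.72 and 6.48 with IFN-gamma, a difference of 0.11 (95% interval -0.41 to 0.63). Ccnd3 read 6.65, 6.22, 5.91, 6.53 and 6.37 against 6.46, 6.18 and 6.37, a difference of 0.00 (95% interval -0.45 to 0.45). For both, every treated culture lay within the control range on that probe set. The 4 Ccnd3 probe sets gave differences from -0.46 to 0.19, and the 2 of Ccnd2 from -0.05 to 0.11. Cdk4, the catalytic partner of the D cyclins, read 7.06, 6.004, 6.52, 6.31 and 6.64 against 6.89, 6.73 and 6.89. Its treated cultures sat in the upper part of the control range, with a difference of 0.33 (95% interval -0.20 to 0.86; adjusted p = 0.743). Cdk2, the partner of cyclin E, read 4.11, 5.34, 4.30, 4.15 and 4.21 against 4.27, 4.66 and 4.28, near the floor in all cultures but control 2. Ccndbp1 differed by 0.06.

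Among the 15 replication genes, 12 had a difference below 0 on the brightest probe set and the median was -0.25. The Mcm subunits, parts of the helicase that is loaded at origins before S phase, gave the only call. Probe set U17565_g_at of Mcm6 read 5.64, 5.83, 5.46, 5.70 and 5.62 in controls and 4.61, 4.35 and 5.06 in IFN-gamma cultures. The controls lay close together and every treated culture lay below them. The mean was 5.65 ± 0.133 (SD, n = 5) in controls and 4.67 ± 0.363 (SD, n = 3) with IFN-gamma, so the level fell by 0.97 (SE 0.194; adjusted p = 0.0455), which is 1.96-fold on this scale. In the deposited signals this probe set ran from 13.7 to 43.7 in controls and from 3.9 to 24.4 on the 5 IFN-gamma arrays.

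The other Mcm6 probe sets gave smaller differences. The brightest, rc_AI639082_s_at, read 6.05, 5.29, 5.67, 5.38 and 5.75 against 5.05, 5.43 and 4.99, with IFN-gamma culture 2 inside the control range and a difference of -0.47 (adjusted p = 0.490). The dimmest, U17565_at, read 4.92, 4.81, 4.27, 4.90 and 4.43 against 4.27, 4.68 and 5.07 and differed by 0.01 (adjusted p = 0.998). The Mcm6 call is lost when any of the 5 controls is left out (adjusted p from 0.0532 to 0.107) and without IFN-gamma culture 1 (0.180) or 2 (0.229); without culture 3 it stays.

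Mcm5, another helicase subunit, read 5.38, 5.19, 5.53, 5.08 and 4.79 in controls and 4.52, 4.85 and 4.53 with IFN-gamma. Control 6 lay below IFN-gamma culture 2, and the difference was -0.56 (95% interval -1.02 to -0.11; adjusted p = 0.328). Mcm7 read 6.08, 6.46, 6.67, 6.39 and 6.11 against 5.72, 6.09 and 5.93, with an overlap of 1 treated culture and a difference of -0.43 (adjusted p = 0.479). The 8 proliferation genes with the E2F letters in their promoter had 7 differences below 0 and a median of -0.21. The 18 with a matched promoter and no such letters had 12 below 0 and a median of -0.15, with no test made.

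Pcna, the sliding clamp, read 7.73, 6.41, 6.13, 6.94 and 7.20 in controls and 6.43, 6.56 and 6.28 in IFN-gamma cultures on its brightest probe set. The controls spread over more than the treated cultures did and the groups overlapped, with a difference of -0.46 (95% interval -1.21 to 0.30; adjusted p = 0.766); its second probe set differed by -0.02. Fen1, the nuclease that trims Okazaki fragments, read 4.99, 5.67, 5.45, 4.41 and 5.68 against 4.72, 4.29 and 5.21, a difference of -0.50 (adjusted p = 0.717). Controls 1 and 5 were within the treated range. Tyms, thymidylate synthase, read 4.30, 4.22, 4.22, 4.27 and 4.36 against 4.20, 4.12 and 4.31. All of its values were near the floor, so a change of Tyms could hardly be seen here.

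The polymerase and primase genes were mixed in direction. Pold3, a subunit of polymerase delta, read 5.48, 6.03, 6.11, 6.03 and 5.96 in controls and 5.72, 5.67 and 5.62 with IFN-gamma, a difference of -0.25 (adjusted p = 0.759). Control 1 was the lowest of all 8 cultures, and the other 4 controls lay above every treated one. Prim1, the catalytic primase subunit, read 4.78, 4.83, 4.22, 4.90 and 5.04 against 5.14, 4.80 and 5.20, a difference of 0.29 (adjusted p = 0.766), and its second probe set gave 0.27. The remaining ones were Pola1 and Pola2 at -0.16 each, Pold1 at 0.24, Prim2 at 0.04, and the clamp loader genes Rfc1 at -0.17 and Rfc4 at -0.29. The 3 Rfc1 probe sets gave differences from -0.17 to 0.28, and the 3 of Rfc4 from -0.52 to 0.19. Mcm3ap, the Mcm3 partner gene, was at -0.34.

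Top2a, the topoisomerase that untangles chromosomes before mitosis, read 5.43, 5.35, 6.15, 5.07 and 5.53 in controls and 5.07, 4.33 and 4.31 in IFN-gamma cultures on its brightest probe set. All treated cultures lay below all controls, though culture 1 was level with control 5 to the second decimal. The difference was -0.94 (95% interval -1.56 to -0.32; adjusted p = 0.193). The 2 other Top2a probe sets differed by -0.20 and -0.15 with overlapping groups.

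The mitotic genes showed no call. Ccnb1, the cyclin of mitosis, read 5.51, 6.05, 5.08, 6.36 and 4.86 in controls and 5.34, 4.66 and 5.75 with IFN-gamma, a difference of -0.32 (adjusted p = 0.884) with wide overlap. On its second probe set the treated cultures read 4.37, 4.14 and 4.17, in or near the lowest part of the control range from 4.16 to 5.89, and the difference was -0.73 (adjusted p = 0.486). Cdk1, its kinase, read 5.40, 4.17, 4.38, 4.82 and 5.87 against 4.65, 4.75 and 4.89. The controls of Cdk1 spanned 4.17 to 5.87, and all treated cultures lay within that span (difference -0.16). Plk1, a kinase of spindle assembly, read 6.22, 6.52, 6.71, 6.79 and 6.62 against 6.11, 6.59 and 6.77, a difference of -0.08 (95% interval -0.55 to 0.38). Cdc20, an activator of the anaphase ligase, differed by -0.15, and the CDK-activating phosphatases Cdc25a and Cdc25b by 0.11 and -0.40.

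The inhibitor Cdkn1a, which encodes p21, read differently on its 2 probe sets. Probe set L41275cds_s_at read 6.06, 5.31, 4.54, 4.66 and 4.64 in controls and 6.87, 6.41 and 6.09 with IFN-gamma. All treated cultures lay above all controls, although IFN-gamma culture 3 exceeded control 1 by little. The means were 5.04 ± 0.646 (SD, n = 5) and 6.46 ± 0.393 (SD, n = 3), a difference of 1.41 (95% interval 0.59 to 2.23; adjusted p = 0.129). The 3 technical arrays agreed to a SD of 0.0338. Without control 1 the difference was 1.67 and passed the threshold (adjusted p = 0.0208).

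The brighter Cdkn1a probe set, U24174_at, read 5.58, 7.17, 5.21, 6.36 and 6.70 in controls and 6.58, 6.52 and 5.37 with IFN-gamma. The groups overlapped fully, and the difference was -0.05 (95% interval -1.10 to 1.01; adjusted p = 0.993). Its technical arrays read 6.89, 7.25 and 5.61, a SD of 0.863 between arrays of 1 culture. The higher level was thus read by 1 of the 2 probe sets and did not pass the threshold.

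The remaining inhibitors were dim and close to equal. Cdkn1b (p27) read 4.62, 4.18, 4.08, 5.15 and 4.29 in controls and 4.22, 4.19 and 5.25 with IFN-gamma, a difference of 0.09 (95% interval -0.63 to 0.81). Cdkn1c (p57) read 5.21, 4.43, 5.44, 4.96 and 4.29 against 4.98, 4.39 and 5.65, a difference of 0.14 (95% interval -0.64 to 0.92). For both genes IFN-gamma culture 3 was the highest of the 8 cultures and the other treated cultures lay among the controls. Cdkn2b (p15), which acts on Cdk4, read 5.42, 5.37, 4.41, 4.81 and 5.26 against 5.05, 4.43 and 4.79, a difference of -0.30 (95% interval -0.91 to 0.31). All 3 intervals span 0.

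Cyclin G1 (Ccng1), a p53 target whose product does not drive the cell cycle as the other cyclins do, had the largest difference below 0 among the members. It read 8.77, 9.04, 7.51, 8.60 and 8.60 in controls and 7.52, 7.28 and 6.78 in IFN-gamma cultures. Control 3 was level with the highest treated culture, and the other 4 controls lay over 1 log2 unit above it. The means were 8.50 ± 0.582 (SD, n = 5) and 7.19 ± 0.376 (SD, n = 3), a difference of -1.31 (95% interval -2.06 to -0.55; adjusted p = 0.129). Without control 3, the array with the lowest median signal, it was -1.56 and passed the threshold (adjusted p = 0.00994).

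The other kinases and partners showed no call. Cdk5r1, the activator of the neuronal kinase Cdk5, read 6.05, 6.51, 6.12, 6.22 and 5.84 in controls and 5.45, 5.38 and 6.11 with IFN-gamma, a difference of -0.50 (adjusted p = 0.485) on its brightest probe set and 0.08 on the other. Cdk13, a kinase of RNA polymerase II, read 6.20, 5.79, 5.92, 6.001 and 5.13 against 5.30, 5.51 and 5.12, a difference of -0.50 (adjusted p = 0.537). Both had 1 culture that kept the groups from separating, IFN-gamma culture 3 for Cdk5r1 and control 6 for Cdk13. Cdk11b read 4.43, 4.43, 4.78, 4.86 and 4.50 against 4.56, 5.42 and 4.92, a difference of 0.37 (adjusted p = 0.665). Cdk7, the CDK-activating kinase, differed by 0.24, and Cdk5rap3 by 0.30 and 0.58 on its 2 probe sets. Cdk5, Cdk14, Cdk17, Cdk18 and Cdkn2aipnl lay between -0.08 and 0.08.

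Probe sets of the same gene often disagreed. Of the 21 members with several probe sets, 11 had the same sign on all of them (9 below 0 and 2 above 0) and 10 had mixed signs. The 9 included Ccnb1, Ccne1, Cdc25b, Cdk2, Pcna, Pold3 and Top2a, and the 2 were Cdk5rap3 and Prim1. The median SD of a member probe set was 0.295 log2 units between the 3 technical arrays of 1 culture, 0.401 between controls and 0.260 between IFN-gamma cultures. All probe sets gave 0.308, 0.400 and 0.248, so the members were as noisy as the rest of the array. Technical spread was thus of the same order as the spread between cultures, and also of the same order as most of the differences listed.

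**Figure D4:**
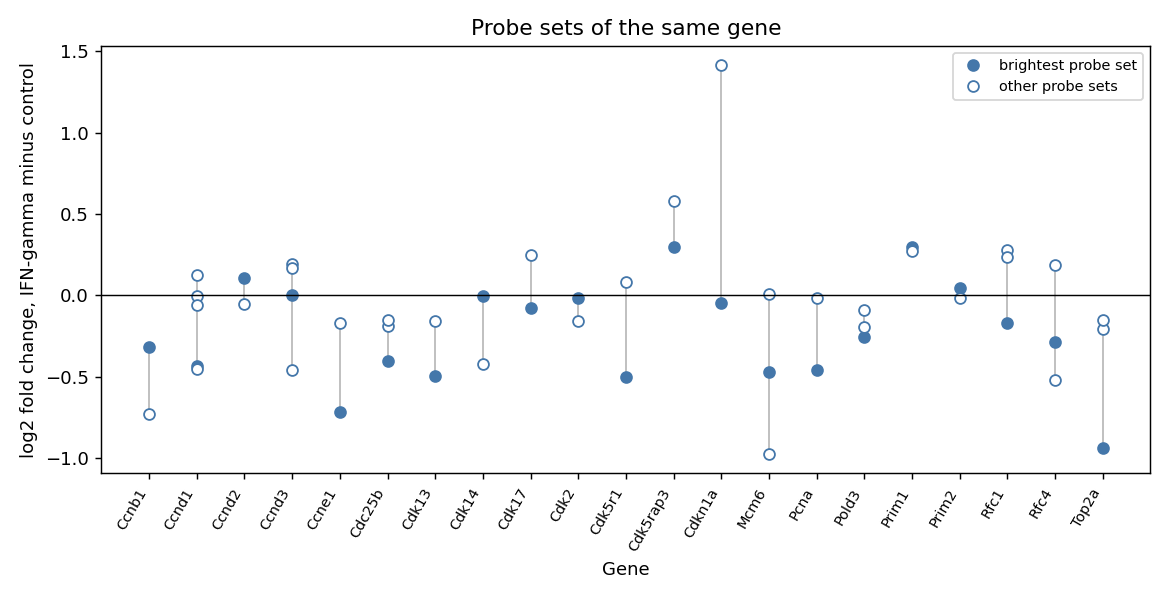
Difference IFN-gamma minus control in log2 units (y axis) for every probe set of the 21 member genes (x axis) that have several; the filled point is the brightest probe set and open points are the others. Cdkn1a spans from -0.05 to 1.41 and Mcm6 from -0.97 to 0.01; signs are mixed in 10 genes.

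Genes around the cell cycle machinery were read from 5 lists, each gene by its brightest probe set, and limma called 0 of their genes in either direction. The Rb and E2F list had 4 of 13 genes measured (Rb1, Rbl2, E2f5 and Hdac2), all with a difference below 0, a median of -0.22 and 0 with an unadjusted p under 0.05. The p53, damage and arrest list had 6 of 21 measured, also all below 0, with a median of -0.09 and 0 unadjusted. Of these, Mdm2, the ubiquitin ligase of p53 and its target, differed by -0.03, and the damage gene Gadd45a by -0.11. The other replication and repair list (10 of 23 measured) had a median of 0.00 and 0 unadjusted, from -0.30 (Ung) to 0.54 (Ssrp1). The other mitosis list (8 of 22) had a median of -0.10 and 1 unadjusted, Tuba1b at 0.60 (adjusted p = 0.198).

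The mitogen list had 15 of 18 genes measured, a median of -0.01 and 3 with an unadjusted p under 0.05 (Csf1, Max and Pdgfra; 11.1% of all genes were under it). Csf1, the colony-stimulating factor that microglia need to live and divide, had a mean of 5.27 in controls and 6.48 with IFN-gamma, a difference of 1.21 (adjusted p = 0.161). Its receptor gene Csf1r differed by 0.15, and Csf2rb, the shared receptor chain for GM-CSF and interleukin 3, by -0.01. Myc differed by 0.17 and its partner Max by 0.79 (adjusted p = 0.348). Pdgfra, a receptor for platelet-derived growth factor, differed by -0.72 (adjusted p = 0.420) on its brightest probe set. Its other probe sets differed by 0.15, 0.125 and 0.02.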

How the data were processed

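The authors deposited linear signal intensities, 1 for each probe set on each array, whose scale differed between arrays. Of MAS5 and GCRMA, both named without a role in the submitters' processing notes, the one that made these values is unknown. Of 8799 probe sets, 59 array controls were left out; 7006 of the other 8740 had 1 symbol, 308 had several and 1426 were unnamed here. The log2 of intensity plus 16 was quantile normalised, technical arrays 1a, 1b and 1c were averaged, and 5 control and 3 IFN-gamma cultures were compared with limma (version 3.58.1; R version 4.3.3), without covariates, by eBayes after lmFit, first tested on simulated data. Fold changes are on that log2 scale. P-values set each difference against the spread between cultures, and the number of cultures limits the precision. Members and gene lists were chosen with earlier results of these data known. Values in every culture are given for called genes, inhibitors, a fixed set of core cell cycle genes and the 8 other genes with the smallest adjusted p; rc_AA998164_s_at of Ccnb1 and the other probe sets were named as companions of these. Alternatives covered scaling, pseudocount, a filter on dim probe sets, technical arrays, the replicate block, the choice of probe set and each culture left out.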

Additional observations from a re-analysis of the deposited data

Results flagged for a closer look

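The control group was checked 51 times, each on 1 probe set of a described gene or on the median of 1 class of genes. A single culture stood apart from its nearest neighbour by most of the range 4 times, and chance alone gives about 1 in 20. Ccng1 read 7.51 in control 3, where the nearest other control read 8.60. Cdc20 read 5.07 in control 5, where the nearest read 4.32 and the remaining controls lay near the floor. Cdk2 read 5.34 in control 2, with the nearest at 4.30. Pold3 read 5.48 in control 1, with the nearest at 5.96. Without control 3 the Ccng1 difference is -1.56 (adjusted p = 0.00994, limma) in place of -1.31 (adjusted p = 0.129).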

How the results depend on the processing

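The count of called member probe sets, 1 as reported, became 0 with no scaling between arrays, with a pseudocount of 1, with array 1b alone for IFN-gamma culture 1 and with the replicate block, and 2 with only probe sets above a mean of 5 (Cdkn1a and Ccng1) and with all 10 arrays and culture as a random block (Cdkn1a and Mcm6). Leaving out 1 culture gave 0 to 1, and the 1 was Cdkn1a in place of Mcm6 without control 1 and with array medians subtracted, and Ccng1 in place of Mcm6 without control 3 and with a trended eBayes. The Mcm6 probe set U17565_g_at was called in 6 of 20 alternatives (adjusted p from 0.0242 to 0.570), Cdkn1a L41275cds_s_at in 4 of 20 and Ccng1 in 3 of 22. The proliferation genes' median was lower than that of all genes in 23 of 23 alternatives, by 0.07 to 0.33, and was -0.36 with a pseudocount of 1 and -0.08 with one of 64; leaving out Ccndbp1 and Mcm3ap, an alternative chosen after seeing the data, left it at -0.16. The inhibitors' median ran from -0.22 to 0.19 and changed sign in 7 of 23; leaving out 1 culture gave -0.22 to 0.078. Mcm6 turned to 0.008 when probe sets with a suffix letter, such as _s_at or _g_at, were left out of the choice. That rule also left out U17565_g_at. Pold3 turned to 0.002 with no scaling, which moved the median of all genes to 0.11. The sign changed in 99 of 945 combinations of gene and alternative, in 21 of 44 genes, and in all but 2 of these the reported difference was smaller than its SE. Calls over all probe sets were 81 higher and 53 lower as reported, 38 and 1 with no scaling, and 100 and 27 with array medians subtracted. Deviations of same-numbered cultures from their group means had correlations of -0.03, 0.00 and -0.01. Technical spread was of the same order as the spread between cultures, so these values cannot decide whether culture numbers pair the groups. With the replicate block Mcm6 U17565_g_at was at -0.97 (adjusted p = 0.444, limma). Except where stated, the cause was not tested.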
